A study of Mus musculus with 24 samples.

Results

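The Hox genes of the mouse lie in 4 clusters, Hoxa, Hoxb, Hoxc and Hoxd, and each gene carries a number, its paralogue group, that gives its place in the cluster. Genes of the GENCODE M1 annotation that code for protein and are named Hoxa, Hoxb, Hoxc or Hoxd plus a number were taken, and 38 of them are described here, of 22380 protein-coding genes counted. They were chosen by name and not by level. The Hoxa cluster holds 10 of them, Hoxb 10, Hoxc 9 and Hoxd 9. The study compared ways to sequence RNA depleted of ribosomal RNA in 2 mouse sources, differentiated embryonic stem (ES) cells and fetal head (FH). The ES cells are CCE, a feeder-independent line of the 129/SvEv strain, differentiated for 5 days by withdrawal of leukaemia inhibitory factor (LIF) and addition of 0.266 µM retinoic acid. The fetal heads are whole heads of FVB/N mice at 14.5 days postcoitum (dpc), with no agent added. Deposited files of 16 libraries were used, 14 made with the RiboMinus depletion kit and 2 with the Ribo-Zero kit.

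CCE and FH differ in strain, age and origin at once, and these cannot be told apart. No undifferentiated or untreated CCE library was analysed here, so no value below can be read as an effect of retinoic acid. For RiboMinus, 7 batches of cDNA were prepared, 4 from CCE and 3 from FH, and both Vienna-IMP and Nijmegen sequenced every one. The study calls 1 FH lane most likely a technical outlier for its tag composition. By lane order this is the Vienna-IMP library of FH1 hydrolysed, which was kept here. Without FH1 hydrolysed, 22 Hox genes were called lower in FH and 0 higher, with 22.5% of all genes lower and 21.4% higher. RNA was either hydrolysed before cDNA synthesis or the finished cDNA was sheared, and FH2 went through 2 rounds of depletion where the others had 1. The tags of both locations were summed, and values are given in the order CCE1 sheared, CCE2 sheared, CCE1 hydrolysed and CCE2 hydrolysed, then FH1 sheared, FH1 hydrolysed and FH2 hydrolysed. The numbers 1 and 2 of the hydrolysed libraries may be crossed between the locations. Across genes, the difference between number 1 and number 2 correlated negatively between Vienna-IMP and Nijmegen in hydrolysed CCE (r = −0.64) and FH (r = −0.50), but positively in sheared CCE (r = 0.64). A value of 1 hydrolysed preparation may thus mix both, and with the numbers crossed at Nijmegen 24 Hox genes were lower in FH and 0 higher, as with the labels kept. Sheared and hydrolysed preparations of 1 number come from the same depleted RNA, so that there are 2 depleted RNAs per tissue and the 7 preparations are not independent. With tags summed per depleted RNA, an alternative chosen after the data were seen, limma called 25 Hox genes lower in FH and 1 (Hoxd1) higher. Of all genes, 39.5% were lower and 28.6% higher in that fit, while 2 against 2 values cannot go below p = 0.333 in the exact test. The sum kept the labels, so if the numbers are crossed, each sum mixes both RNAs and the spread between them may be too small. The CCE preparations are technical replicates and separate animals are not stated for FH, so p-values measure only the spread between preparations and, since some share RNA, may be too small. The Ribo-Zero libraries, 1 per tissue, were made from separate RNA of the same sources. In such bulk RNA, fewer cells of a type and less RNA per cell cannot be told apart.

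Hox genes code for homeodomain transcription factors that give cells of the embryo their position along the head to tail axis. The genes at one end of a cluster (low numbers) are transcribed first and reach farthest towards the head, while those at the other end (high numbers) are transcribed later and act in the trunk, tail, limbs and genital region. Their anterior limits lie in the hindbrain or farther towards the tail, so that the forebrain and midbrain normally carry little Hox RNA. Retinoic acid is a known inducer of Hox genes in the hindbrain and in ES cells, acting through receptors that bind direct repeats of a short hexamer.

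The clusters also hold microRNA genes, whose mature forms are shown because the tags around them are part of the cluster results. The sequences are from RefSeq (GRCm38.p6), are written 5′ to 3′, and carry the seed (bases 2 to 8) in capitals.
miR-10a-5p, in the Hoxb cluster: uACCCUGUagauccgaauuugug
miR-10b-5p, in the Hoxd cluster: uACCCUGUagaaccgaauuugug
miR-196a-5p, in the Hoxb and Hoxc clusters: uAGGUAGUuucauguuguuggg
miR-196b-5p, in the Hoxa cluster: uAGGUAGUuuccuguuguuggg
miR-615-3p, in the Hoxc cluster: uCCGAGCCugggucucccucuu
The miR-10 pair shares the seed ACCCUGU and the miR-196 pair shares the seed AGGUAGU, while miR-615-3p has a seed of its own. Each mature sequence was found, with T for U, inside its annotated hairpin in the mm9 genome.

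The 4 clusters were also searched for the DR5 retinoic acid response element, a direct repeat of a hexamer with 5 bases between, on both strands. The hexamer could be AGGTCA, the variant AGTTCA, the variant GGGTCA or the variant GGTTCA. There were 4 matches, or 8.25 per Mb, against 3.49 per Mb over the whole mm9 genome. Of these, 3 lay in an intron of a group 3 gene, and they are shown because they are near copies of each other in 3 clusters. The hexamers are in capitals.
Hoxa3 intron, chr6:52125532-52125548, minus strand: GGTTCAagaagAGTTCA
Hoxb3 intron, chr11:96202550-96202566, plus strand: GGTTCAagaagAGTTCA
Hoxd3 intron, chr2:74579597-74579613, plus strand: GGTTCAagcagAGTTCA
The Hoxa3 and Hoxb3 matches were identical, and the Hoxd3 match differed from the Hoxb3 match by A9C, counted from 1 at the 5′ end. All 3 were on the strand of the Hox genes and lay 14.1 kb, 19.6 kb and 12.4 kb beyond the ends of Hoxa4, Hoxb4 and Hoxd4. The other match lay between genes in the Hoxb cluster, 14.6 kb after the end of Hoxb13, with no tag within 1000 bases on either side in any library. With 2 bases between the hexamers (DR2), there were 2 matches, or 4.12 per Mb, against 10.6 per Mb over the genome. The search stopped at the outermost listed Hox genes, so the flanks of the clusters were not searched. With so few matches and no test, the densities show neither enrichment nor depletion. A match is a run of letters and was not shown here to bind a receptor.

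Hox RNA was found in both tissues, at a higher summed level in CCE. Levels are given as RPKM, the tags per kilobase of exon and per 1000000 unique tags, which adjusts for gene length and sequencing depth. The RPKM of the 38 genes summed to 219, 216, 206 and 205 in the CCE preparations and to 64.0, 51.5 and 58.8 in those of FH. The CCE sums were all above the FH sums, with means of 212 ± 7.06 (SD, n = 4) and 58.1 ± 6.26 (SD, n = 3), a ratio of 3.64. With 4 against 3 preparations the exact two-sided permutation test cannot go below p = 0.0571, the value it gave. In the Ribo-Zero libraries the sums were 68.0 in CCE and 19.8 in FH, a ratio of 3.44.

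Gene by gene, FH was compared with CCE by limma on log2(RPKM + 1), which understates the change of low genes. Genes with 20 or more exon tags over the 7 preparations were tested, and p-values were adjusted over all 14428 of them by the Benjamini-Hochberg method. Of the 38 Hox genes 33 could be tested, of which 24 were lower in FH, 0 were higher and 9 did not pass, with 25 at an unadjusted p under 0.05. Of all genes tested, 28.0% were called lower in FH and 23.4% higher. The median difference was −1.05 over the 33 Hox genes and −0.15 over all genes tested. A gene that reached 20 tags through CCE alone had to differ. With no such filter, all 38 genes could be tested and 22 were lower and 0 higher, with 15.004% of all genes lower and 14.996% higher. For 25 of the 38 genes every FH preparation was below every CCE preparation, against 29.2% of all genes tested, and 0 showed the reverse (24.0% of all genes). With median ratio scaling in place of total tags, the median of all genes moved from −0.15 to 0.03, with 27.3% of genes called higher and 20.0% lower in FH, and 22 Hox genes were lower and 0 higher.

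**Figure D1:**
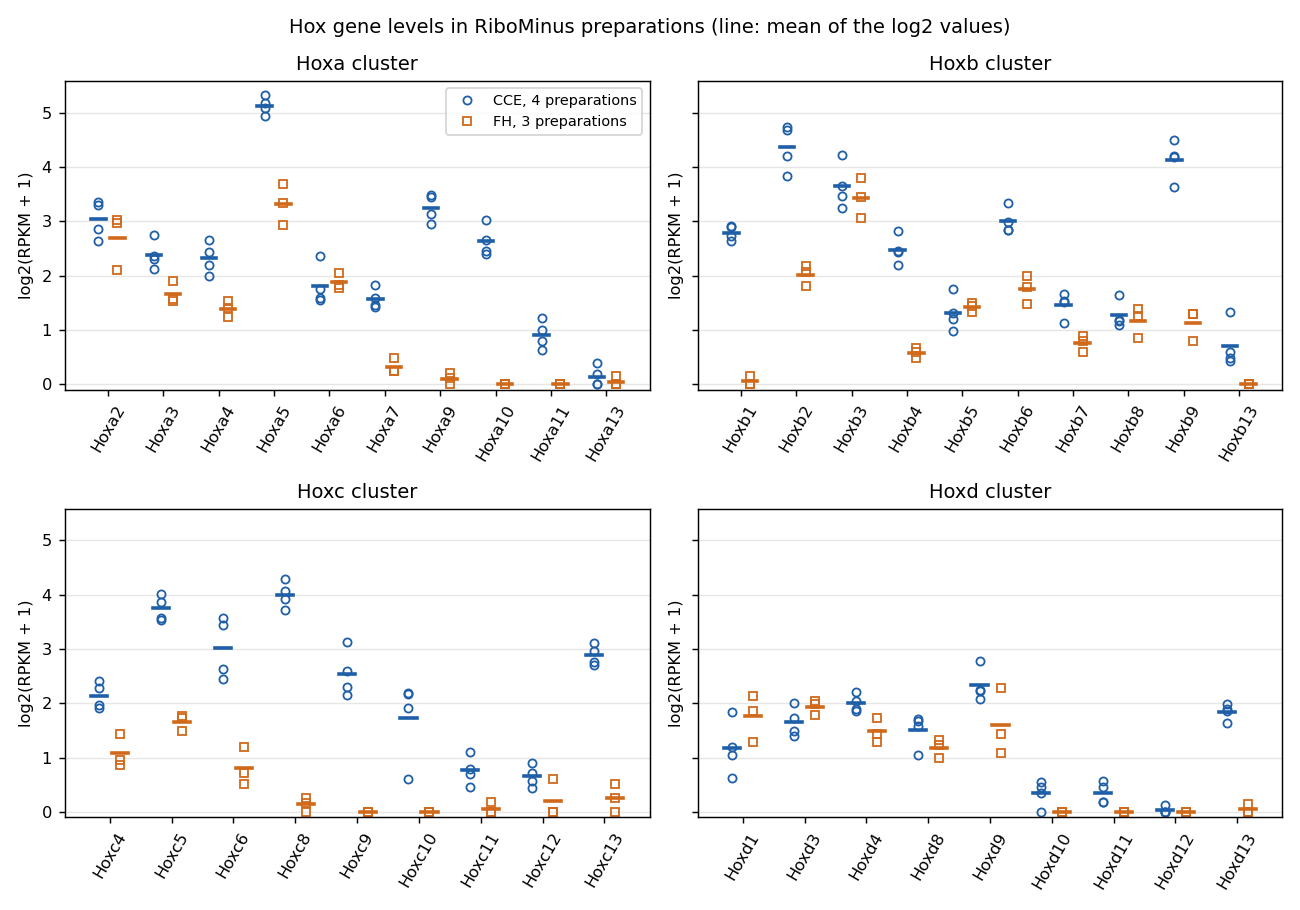
Level of each Hox gene, as log2(RPKM + 1), in the 4 CCE (circles) and 3 FH (squares) RiboMinus preparations, ordered by cluster and paralogue number, with a line at the mean of each group. FH points fall at or near 0 for the high-numbered genes of every cluster except Hoxd9 and Hoxb9, while the points of Hoxa6, Hoxb3, Hoxb5 and Hoxb8 overlap between the tissues.

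Paralogue groups 1 to 3, the genes of the hindbrain and pharyngeal arches, held genes that differed little and genes that differed strongly. Of 7 genes, 3 were lower in FH (Hoxb1, Hoxb2 and Hoxa3), 0 were higher and 4 did not pass. Among all genes tested 28.0% were lower and 23.4% higher. Hoxb1, which gives the identity of a single hindbrain segment, had an RPKM of 5.19, 6.53, 6.47 and 5.63 in the CCE preparations and 0, 0.116 and 0 in those of FH. This was 181 exon tags in CCE and 1 in FH, a log2 difference of −2.74 ± 0.16 (SE, adjusted p = 1.98e-06). Hoxb2, which acts beside Hoxb1 in the hindbrain, stood at 24.7, 25.7, 17.4 and 13.2 in CCE and at 3.53, 3.18 and 2.52 in FH. All FH values were below all CCE values, and the log2 difference was −2.35 ± 0.25 (adjusted p = 6.23e-05). Of its exon bases 49.4% are also exons of Hoxb3os on the other strand, and since tags carry no strand these genes cannot be told apart there.

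Hoxa3, needed for the thymus and parathyroid, had values of 3.37, 5.74, 3.93 and 4.12 in CCE and 2.74, 1.89 and 1.97 in FH. The groups did not overlap (log2 difference −0.72 ± 0.21, adjusted p = 0.0168), but the call was lost without FH1 hydrolysed (adjusted p = 0.0681) or FH2 hydrolysed (0.0687), at Nijmegen alone (0.0971), and with median ratio scaling (0.0805). Hoxa3 shares 53.5% of its exon bases with other annotated genes. Hoxa2, the gene that sets the identity of the second pharyngeal arch, was 5.25, 6.26, 9.20 and 8.83 in CCE against 3.28, 7.11 and 6.87 in FH. These values overlapped (log2 difference −0.34 ± 0.28, adjusted p = 0.347), and the gene was called lower in FH with fragmentation as a covariate (−0.46, adjusted p = 0.0119) and with hydrolysed preparations only (−0.33, 0.0355), and with a block on the preparation number and fragmentation together (−0.44, 0.0252). Hoxb3, at 11.6, 17.6, 10.0 and 8.50 in CCE and 12.9, 7.35 and 9.85 in FH, overlapped too and had the highest mean of all 38 genes in FH (10.0 ± 2.76, SD, n = 3, against 9.19 ± 2.62 for Hoxa5). Its log2 difference was −0.21 ± 0.27 (adjusted p = 0.538) and 0.02 with median ratio scaling. Hoxb3 shares 37.9% of its exon bases with Hoxb3os on the other strand, where these genes cannot be told apart. In the Ribo-Zero FH library Hoxb3 was not the highest, at 2.14 against 2.30 for Hoxa2, 2.23 for Hoxa5 and 2.17 for Hoxd8.

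Hoxd1 and Hoxd3 had their higher mean in FH. Hoxd1 was 1.08, 2.58, 0.538 and 1.28 in CCE against 3.41, 1.45 and 2.61 in FH, with a log2 difference of 0.59 ± 0.30 (adjusted p = 0.136). The CCE2 sheared value lay inside the FH range, and without that preparation the difference was 0.81 (adjusted p = 0.0302). The gene was called higher in FH under 5 of 22 alternatives, with the lowest adjusted p, 0.00145, in the fit with a block on the preparation number and fragmentation together (0.80). Hoxd3 was 2.31, 3.00, 1.64 and 1.80 in CCE against 3.11, 2.46 and 2.96 in FH (0.28 ± 0.19, adjusted p = 0.250). It shares 35.8% of its exon bases with Hoxd4 and an antisense gene, and over its own exon bases alone the difference was 1.16 (adjusted p = 8.80e-04). In the Ribo-Zero libraries, 1 per tissue, both genes were lower in FH, as given below, so their direction differed between the 2 sets. Of 17253 genes with more than 3 tags in a Ribo-Zero library, 53.1% were lower in FH too. For Hoxd3 the counting interval of the CCE over FH ratio there began close to 1 (1.01 to 1.45). Whether a general shift between the sets accounts for these turns was not tested.

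In groups 4 to 8, genes of the neck and upper trunk, 11 of 15 were lower in FH, 0 were higher and 4 did not pass. The shares over all genes tested were 28.0% lower and 23.4% higher. Hoxa5, known from lung development and the neck vertebrae, had the highest level of all 38 genes in CCE, at 38.9, 35.1, 29.6 and 32.9. In FH it was 11.8, 6.60 and 9.12, below every CCE value, with a log2 difference of −1.81 ± 0.21 (adjusted p = 1.12e-04). Hoxa4 was 3.57, 5.33, 4.4 and 2.98 in CCE against 1.66, 1.35 and 1.89 in FH (−0.93 ± 0.20, adjusted p = 4.46e-03), a call that was lost with the Vienna-IMP libraries alone (−0.40, adjusted p = 0.244). Hoxa7 was low in both tissues, at 2.56, 1.67, 2.00 and 1.76 against 0.184, 0.187 and 0.402, and the groups were apart (−1.25 ± 0.15).

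Hoxb4, known for its effect on blood stem cells, was 4.44, 3.56, 6.04 and 4.51 in CCE against 0.510, 0.584 and 0.390 in FH (−1.90 ± 0.19, adjusted p = 3.67e-05). Hoxb6 was 6.94, 9.08, 6.15 and 6.15 in CCE against 1.79, 2.98 and 2.45 in FH (−1.25 ± 0.21, adjusted p = 9.50e-04). Hoxb7 was 1.89, 1.18, 1.84 and 2.18 in CCE against 0.519, 0.857 and 0.736 in FH (−0.69 ± 0.17, adjusted p = 7.72e-03), a call that was lost at Nijmegen alone (adjusted p = 0.0588). All 3 genes were apart between the tissues, while their neighbours Hoxb5 and Hoxb8 were not. Hoxb5 was 1.31, 2.37, 0.980 and 1.48 in CCE against 1.51, 1.72 and 1.81 in FH, and Hoxb8 was 1.27, 1.12, 1.23 and 2.13 in CCE against 1.6, 0.814 and 1.4 in FH. Their log2 differences were 0.11 ± 0.20 and −0.10 ± 0.20 (0.05 with median ratio scaling for Hoxb8). Hoxb7 and Hoxb8 share exon bases, 26.2% and 40.4% of their lengths.

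The Hoxc genes of these groups, which take part in the neck and forelimb level of the spinal cord, were all lower in FH. Hoxc8, a gene of motor neurons that reach the forelimb, was 15.7, 12.2, 18.5 and 14.2 in CCE against 0, 0.117 and 0.201 in FH. On the log2(RPKM + 1) scale this was the largest difference among the tested Hox genes, −3.86 ± 0.19 (adjusted p = 1.06e-06). It rested on 464 tags in CCE and 3 in FH, a pooled ratio of 118 with a 95% counting interval of 40.0 to 572. The pooled ratios of Hoxa9 (147, 40.5 to 1220) and Hoxb1 (138, 24.4 to 5467) were above that of Hoxc8, but the intervals overlapped. Genes with 0 tags in FH have no finite ratio and are not ranked. Hoxc5 was 10.9, 10.6, 13.6 and 15 in CCE against 1.81, 2.40 and 2.30 in FH (−2.09 ± 0.19). Hoxc6 was 5.22, 4.43, 10.9 and 9.85 in CCE against 0.423, 1.29 and 0.647 in FH (−2.21 ± 0.32). In CCE both hydrolysed preparations of Hoxc6 lay above both sheared ones. Hoxc4 was 2.75, 2.89, 4.31 and 3.83 in CCE against 0.828, 0.948 and 1.72 in FH (−1.05 ± 0.21).

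Of the others in these groups, Hoxa6 overlapped between tissues, at 4.16, 2.39, 1.99 and 1.92 in CCE and 3.16, 2.54 and 2.41 in FH (0.07 ± 0.23). Hoxd4 was 2.62, 3.61, 2.74 and 3.13 in CCE against 1.45, 2.31 and 1.72 in FH, below in each preparation (−0.51 ± 0.18, adjusted p = 0.0394). It shares 67.4% of its exon bases with Hoxd3, and over its own exon bases alone the difference was −0.24 (adjusted p = 0.639). Its call was lost under 13 of 22 alternatives, among them without any one of CCE2 sheared, CCE1 hydrolysed, CCE2 hydrolysed, FH1 sheared or FH2 hydrolysed (adjusted p = 0.0741, 0.0656, 0.0816, 0.105 and 0.119). Hoxd8 was 2.20, 1.08, 2.01 and 2.27 in CCE against 1.35, 0.981 and 1.52 in FH, with −0.32 ± 0.20 (adjusted p = 0.205) and −0.47 (0.0412) without CCE2 sheared.

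Groups 9 to 13, the genes of the lower trunk, limbs and genital region, were low in FH. Of 16 genes, 11 could be tested, of which 10 were lower in FH, 0 were higher and 1 did not pass. The FH RiboMinus preparations held no tag of 8 of the 16 genes, and at most 4 tags of 14. Of those 8, Hoxa10 had 6 tags in the FH Ribo-Zero library, Hoxc9 had 2, and Hoxc10, Hoxd10 and Hoxd11 had 1 each. Hoxb9 and Hoxd9 were the exceptions with 30 and 41 tags. Hoxb9 was 17.4, 11.3, 17.1 and 21.5 in CCE against 1.44, 0.732 and 1.44 in FH, all below CCE (−3.0 ± 0.24, adjusted p = 1.19e-05). Hoxd9 was 3.68, 3.73, 3.21 and 5.85 in CCE against 3.88, 1.11 and 1.70 in FH. The FH1 sheared value lay among those of CCE (−0.73 ± 0.30, adjusted p = 0.0696), and without it the difference was −1.08 (0.00736). It was called lower in FH under 5 of 22 alternatives.

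Hoxa9, a gene of blood progenitors and of the trunk, was 9.97, 10.2, 7.75 and 6.72 in CCE against 0.152, 0.0771 and 0 in FH (387 against 2 tags, −3.15 ± 0.19). Hoxa10, which acts in the uterus and the lumbar region, was 7.15, 5.30, 4.24 and 4.49 in CCE and had 0 tags in FH. A count of 0 allows up to 3 tags, so Hoxa10 was at least 65.9-fold higher in CCE against that floor, which leaves out the counting error of CCE, and the exact 95% interval of the ratio began at 53.2. This bound is for RiboMinus alone, since the Ribo-Zero libraries held 146 and 6 tags of Hoxa10, 41.0-fold higher in CCE (18.4 to 114). Hoxc9, a gene of thoracic motor neurons, was 7.72, 5.02, 3.92 and 3.42 in CCE with 0 tags in FH, at least 39.3-fold higher in CCE against the floor (interval from 31.6). Hoxc10, at 0.526, 3.49, 2.76 and 3.58 in CCE and 0 tags in FH, was at least 16.5-fold higher (interval from 13.02). Its CCE1 sheared value lay far below the other CCE values. Hoxc9 and Hoxc10 were both called lower in FH (−2.54 ± 0.23 and −1.72 ± 0.35).

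In Hoxc and Hoxd the last gene of the cluster was not the lowest in CCE. Hoxc13, known from hair and nails, was 6.80, 7.66, 5.80 and 5.55 in CCE against 0.430, 0 and 0.188 in FH (204 against 4 tags, −2.63 ± 0.19, adjusted p = 6.59e-06). Hoxd13, known from digits, was 2.70, 2.98, 2.12 and 2.63 in CCE against 0, 0.108 and 0 in FH (83 against 1 tag, −1.80 ± 0.14, adjusted p = 9.45e-06). Both stood above the genes next to them. Hoxc12 had 8 tags and Hoxc11 19 tags in CCE, and Hoxd12 had 1 tag, Hoxd11 20 tags and Hoxd10 10 tags. Hoxa11 (0.996, 0.550, 0.745 and 1.33 in CCE, 0 tags in FH, −0.91 ± 0.14), Hoxc11 (1.16, 0.366, 0.620 and 0.735 against 0, 0.133 and 0, −0.70 ± 0.16) and Hoxd11 (0.370, 0.136, 0.138 and 0.493 in CCE, 0 tags in FH, −0.35 ± 0.12) were also called. The Hoxc11 call was lost at Vienna-IMP alone (adjusted p = 0.0699). The Hoxd11 call was lost under 9 of 22 alternatives, among them without CCE1 sheared, CCE2 hydrolysed, FH1 hydrolysed or FH2 hydrolysed (adjusted p = 0.0813, 0.0779, 0.0721 and 0.0779). The 5 genes under 20 tags were Hoxa13, Hoxb13, Hoxc12, Hoxd10 and Hoxd12, whose mean RPKM in CCE was 0.110, 0.691, 0.590, 0.283 and 0.0239.

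**Figure D2:**
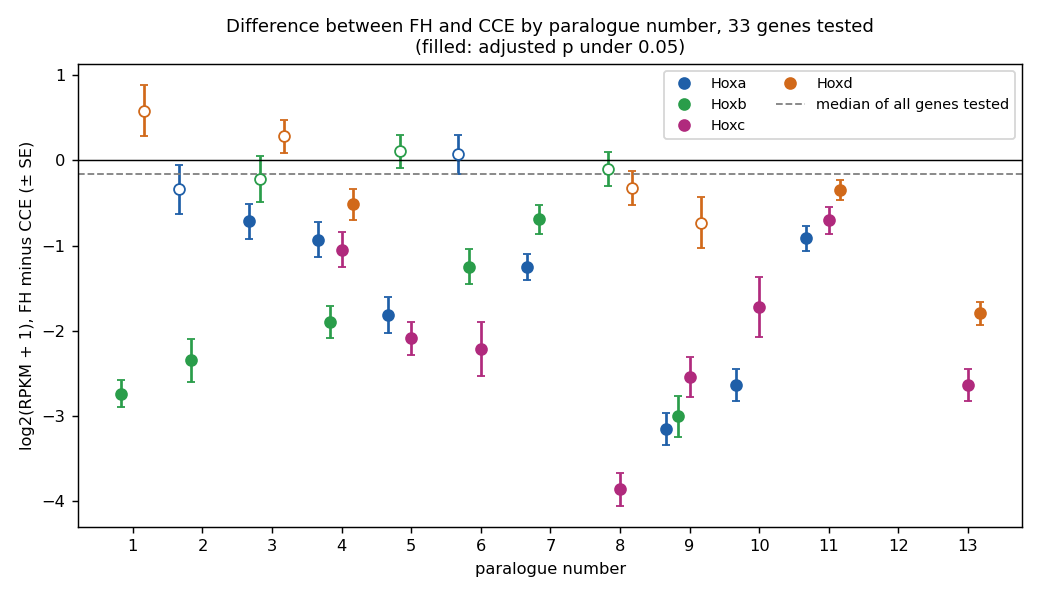
Difference between FH and CCE in log2(RPKM + 1) with its SE, plotted against paralogue number for the 33 genes tested and coloured by cluster, with filled points for adjusted p under 0.05. No filled point lies above 0, the Hoxc points are all filled, and Hoxd1 lies highest at 0.59.

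The relation of the difference to the paralogue number varied by cluster and with the pseudocount. Across the 33 genes tested Pearson's r between number and log2 difference was −0.29 and Spearman's rho −0.28. Within clusters r was −0.84 for the 7 Hoxd genes, −0.55 for the 9 Hoxa genes, −0.10 for the 8 Hoxc genes and 0.21 for the 9 Hoxb genes. With a pseudocount of 0.1, which compresses low genes less, r was −0.49 over all, −0.89 for Hoxd, −0.79 for Hoxa, −0.50 for Hoxc and 0.34 for Hoxb. These are descriptions across genes, which share their libraries and are not independent replicates.

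Seen by class, the mix of Hox RNA differed between the tissues. Groups 9 to 13 took 27.9%, 24.0%, 24.4% and 28.0% of the summed Hox RPKM in CCE and 10.0%, 4.41% and 5.65% in FH. Groups 1 to 3 took 24.4%, 31.2%, 23.9% and 21.1% in CCE and 45.2%, 45.7% and 45.5% in FH. In both classes the tissues did not overlap, with means of 26.1% ± 2.19 against 6.70% ± 2.95 and of 25.2% ± 4.29 against 45.5% ± 0.257 (SD, n = 4 and n = 3; exact permutation p = 0.0571 each, the smallest possible, adjusted over 3 classes 0.0857). Groups 4 to 8 overlapped, with 48.7% ± 3.18 in CCE and 47.8% ± 2.70 in FH (exact permutation p = 0.743). In absolute terms all 3 classes were lower in FH, at 26.4 against 53.4 summed RPKM for groups 1 to 3, 27.7 against 102.9 for groups 4 to 8, and 4.00 against 55.2 for groups 9 to 13. The Ribo-Zero libraries gave 25.0%, 57.7% and 17.3% for the 3 classes in CCE and 38.4%, 56.7% and 4.93% in FH. In all these sums and shares, tags on exon bases that Hox genes share count for each gene. Those shared by Hoxd3 and Hoxd4 (67.4% of Hoxd4) thus enter 2 classes. Tags of Hoxb3os on exons of Hoxb2 and Hoxb3 enter groups 1 to 3.

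**Figure D3:**
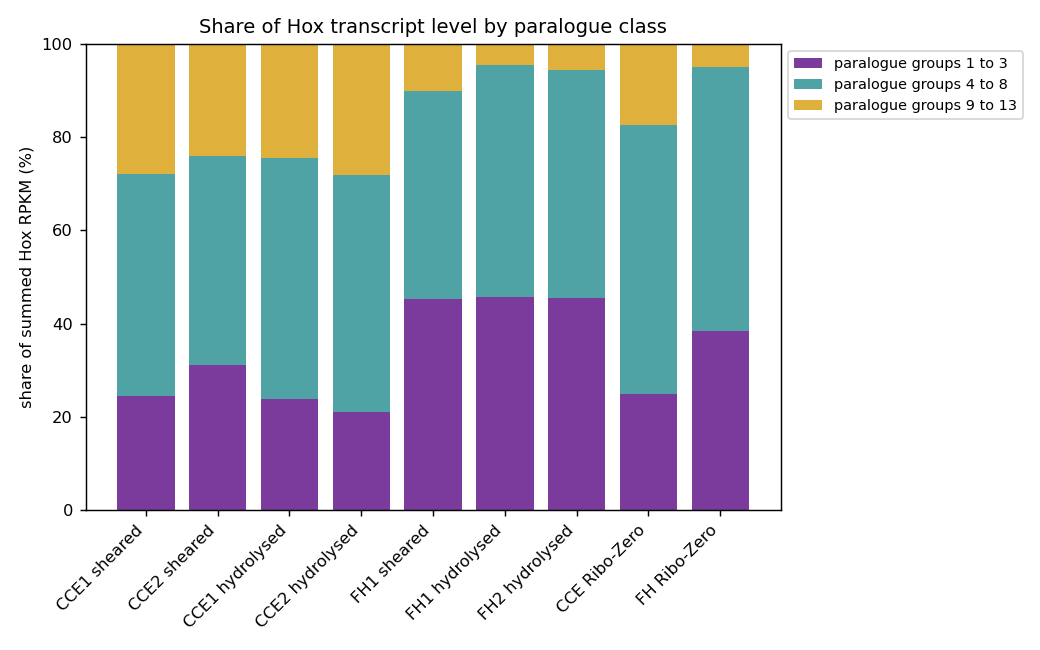
Share of the summed Hox RPKM held by paralogue groups 1 to 3, 4 to 8 and 9 to 13 in each RiboMinus preparation and Ribo-Zero library. Groups 1 to 3 hold over 45% in the 3 FH preparations, and groups 9 to 13 hold 4.41% to 10.0% there against 24.0% to 28.0% in the CCE preparations.

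By cluster, Hoxc differed most and Hoxd least. Summed RPKM was 54.1 ± 6.13 in CCE against 4.65 ± 0.561 in FH for Hoxc, a ratio of 11.6. It was 69.4 ± 5.76 against 21.9 ± 1.73 for Hoxa and 72.1 ± 6.50 against 20.9 ± 2.72 for Hoxb, ratios of 3.18 and 3.45. For Hoxd it was 15.8 ± 2.12 against 10.7 ± 2.39 (exact permutation p = 0.114, n = 4 and n = 3), a ratio of 1.47, and the groups overlapped. All 8 tested Hoxc genes were called lower in FH, against 7 of 9 in Hoxa, 6 of 9 in Hoxb and 3 of 7 in Hoxd. Of all genes tested, 28.0% were lower and 23.4% higher. Hoxc8, Hoxc9, Hoxc10, Hoxc11 and Hoxc13 passed the tag filter almost wholly through CCE, with 3, 0, 0, 1 and 4 tags in FH. Hoxc4, Hoxc5 and Hoxc6 had 32, 65 and 21 there. Other clusters hold such low genes too, among them Hoxa10, Hoxb1 and Hoxd13 (0, 1 and 1 tags in FH). The counts of calls thus do not rank the clusters by themselves.

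The Ribo-Zero libraries held 28708715 unique tags in CCE and 48426051 in FH. With 1 library per tissue there is no test between the tissues, and the 95% intervals below cover counting error only. The interval of the ratio lay below 1 (lower in FH) for 29 of the 38 genes and above 1 for 0, held 1 for 5, and both libraries were at or under 3 tags for 4. Of 17253 genes over that floor, the interval lay below 1 for 53.1% and above 1 for 29.8%. Of the 24 genes called lower in FH in RiboMinus, 22 were also lower here. The others were Hoxc11, with 2 tags and 0, and Hoxb6, at 0.705 RPKM in CCE and 0.925 in FH. The CCE over FH ratio of Hoxb6 was 0.762 (0.516 to 1.11), an interval that held 1 and did not overlap that of pooled RiboMinus tags, 2.75 (2.01 to 3.81). The 5 genes whose interval held 1 were Hoxa6, Hoxb3, Hoxb5, Hoxb6 and Hoxb8.

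Hoxa5 was again the highest in CCE, with an RPKM of 8.17 (7.42 to 8.97) against 2.23 (1.94 to 2.56) in FH. Hoxc4 followed with 7.21 (6.61 to 7.85) against 0.880 (0.723 to 1.06), 8.19-fold higher in CCE, and Hoxc5 with 5.71 (5.21 to 6.24) against 0.812 (0.671 to 0.975). Hoxb2 was 5.12 (4.68 to 5.60) against 0.888 (0.748 to 1.05). These genes kept the direction seen in RiboMinus, and their intervals did not overlap between the tissues. Hoxb1 had 109 tags in CCE and 0 in FH, at least 61.3-fold higher against the floor of 3 tags (interval from 49.0). Hoxa9 had 316 against 3 tags (178-fold, 60.2 to 866), and Hoxc8 had 201 against 15 tags (22.6-fold, 13.4 to 41.1).

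For the genes that overlapped in RiboMinus, Hoxb3 was 2.21 (1.91 to 2.55) in CCE and 2.14 (1.91 to 2.39) in FH. Hoxa2 was 3.77 (3.32 to 4.25) against 2.30 (2.03 to 2.59) and Hoxd8 was 3.28 (2.89 to 3.70) against 2.17 (1.92 to 2.43), with intervals that did not overlap. Hoxd9 had 118 tags in CCE and 28 in FH, 7.11-fold higher in CCE (4.68 to 11.2). Hoxd1 was 1.31 (1.02 to 1.65) against 0.865 (0.683 to 1.08), 1.51-fold higher in CCE (1.08 to 2.12), where pooled RiboMinus tags gave 0.548-fold (0.334 to 0.891). Hoxd3 was 1.29 (1.12 to 1.47) against 1.06 (0.945 to 1.19), 1.21-fold (1.01 to 1.45), where RiboMinus gave 0.756-fold (0.603 to 0.947). These were the 2 genes with intervals on opposite sides of 1. The intervals leave out any general shift between the sets. RPKM in RiboMinus over that in Ribo-Zero was 1.17 in CCE and 1.38 in FH for the median gene with 20 tags in both.

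**Figure D4:**
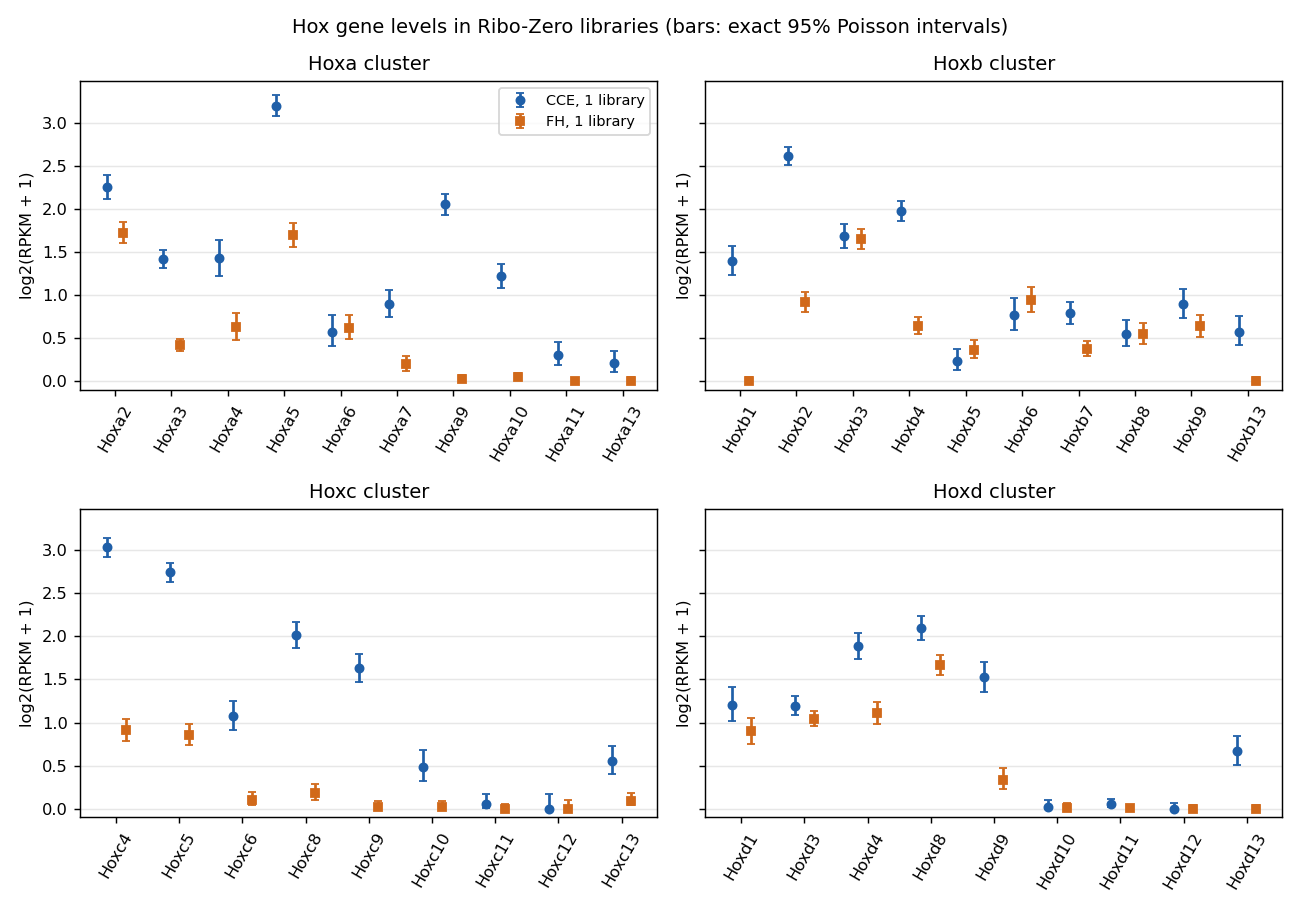
Level of each Hox gene, as log2(RPKM + 1), in the CCE (circle) and FH (square) Ribo-Zero library, ordered by cluster and paralogue number, with exact 95% Poisson intervals. Hoxa5 and Hoxc4 lie highest in CCE, and the FH points of the high-numbered genes lie at or near 0.

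Levels of single genes were not the same under both depletion methods. In CCE the RPKM in pooled RiboMinus tags was 2.69 times that in Ribo-Zero for the median Hox gene with 20 tags in both (29 genes), against 1.17 times for the median of 12376 genes. In FH these ratios were 2.73 (20 Hox genes) and 1.38 (13283 genes). The ratio in CCE ran from 0.491 for Hoxc4 to 19.8 for Hoxb9, which had 575 tags in RiboMinus and 64 in Ribo-Zero. Hoxb9 was thus 14.6-fold higher in CCE than in FH by RiboMinus (10.1 to 21.8) and 1.56-fold by Ribo-Zero (1.10 to 2.23). Hoxc13 (13.6) and Hoxb6 (9.85) had the next ratios. RNA sample, kit, read length and sequencing site all changed between the 2 sets and cannot be told apart. The pooled RiboMinus tags also include sheared preparations, while Ribo-Zero RNA was hydrolysed only. Mitochondrial tags had been removed from RiboMinus and made up 8.23% (CCE) and 4.54% (FH) of the Ribo-Zero tags that scale RPKM.

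In introns too, the RiboMinus preparations of the tissues were apart in Hoxa, Hoxb and Hoxc and overlapped in Hoxd. Introns of the Hox genes in the Hoxa cluster carried 59.6 ± 19.0 tags per 1000000 unique tags in CCE and 15.1 ± 5.80 in FH, those of Hoxb 34.2 ± 9.67 and 12.6 ± 2.82, and those of Hoxc 25.6 ± 9.32 and 2.23 ± 0.540. The tissues did not overlap in these 3. In Hoxd they overlapped, at 21.2 ± 6.67 against 13.1 ± 4.93 (SD, n = 4 and n = 3, exact permutation p = 0.229). In Ribo-Zero the introns of Hoxa, Hoxb, Hoxc and Hoxd were 5.24-, 1.65-, 11.0- and 1.29-fold higher in CCE. The counting interval for Hoxd, 1.15 to 1.44, lay above 1 there. Between the annotated genes of Hoxb there were 35.8, 31.8, 62.6 and 68.9 tags per 1000000 in CCE and 4.24, 1.35 and 2.78 in FH, or 675 and 25 tags. Over exons, introns and the parts between genes, the exact permutation p was 0.0571, the smallest it can give, in each part of Hoxa, Hoxb and Hoxc (adjusted over 12 tests 0.0762), and 0.114, 0.229 and 0.743 in Hoxd. Nothing is read from the value between genes of Hoxa, which rests on 5 tags against 1 (FH over CCE ratio 0.263, counting interval 0.00556 to 2.35).

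Between genes the other clusters were almost silent, with 5 tags in CCE and 1 in FH for Hoxa, 22 and 2 for Hoxc, and 6 and 5 for Hoxd. Over all 4 clusters, 135 kb between genes carried 0.403 RPKM in CCE and 0.0247 in FH, where all parts of the genome between annotated genes carried 0.0860 and 0.0821. In the Ribo-Zero libraries these were 0.141 and 0.0221 in the clusters and 0.0299 and 0.0375 in the genome. The CCE value was thus above the genome level and the FH value below it in both sets. The CCE value in RiboMinus came from Hoxb (0.585 RPKM), while Hoxa (0.0358), Hoxc (0.0532) and Hoxd (0.0554) lay below the genome level of 0.0860. In Ribo-Zero CCE, Hoxb (0.207) and Hoxc (0.0348) lay above the genome level of 0.0299, and Hoxa (0.0166) and Hoxd (0.0232) below it.

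The Hoxb tags between genes came mostly from 2 stretches. The 6.19 kb from the miR-196a-1 gene to Hoxb9 (chr11:96126580-96132770, mm9) held 248 tags of CCE and 2 of FH in RiboMinus, and 235 and 4 in Ribo-Zero. The 9.77 kb before Hoxb4 (chr11:96168225-96177997) held 283 and 14, and 177 and 89 in Ribo-Zero. By contrast, 43.2 kb between the Gm11538 and Gm11539 genes (chr11:96066795-96109946) held 9 and 1. The gene Gm53, annotated as protein-coding between Hoxb13 and Hoxb9 and named here after its values were seen, adjoins the first stretch through miR-196a-1. Its RPKM was 12.8, 10.9, 10.8 and 9.63 in CCE against 0.266, 0.0677 and 0 in FH, with 267 and 4 tags in Ribo-Zero.

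**Figure D5:**
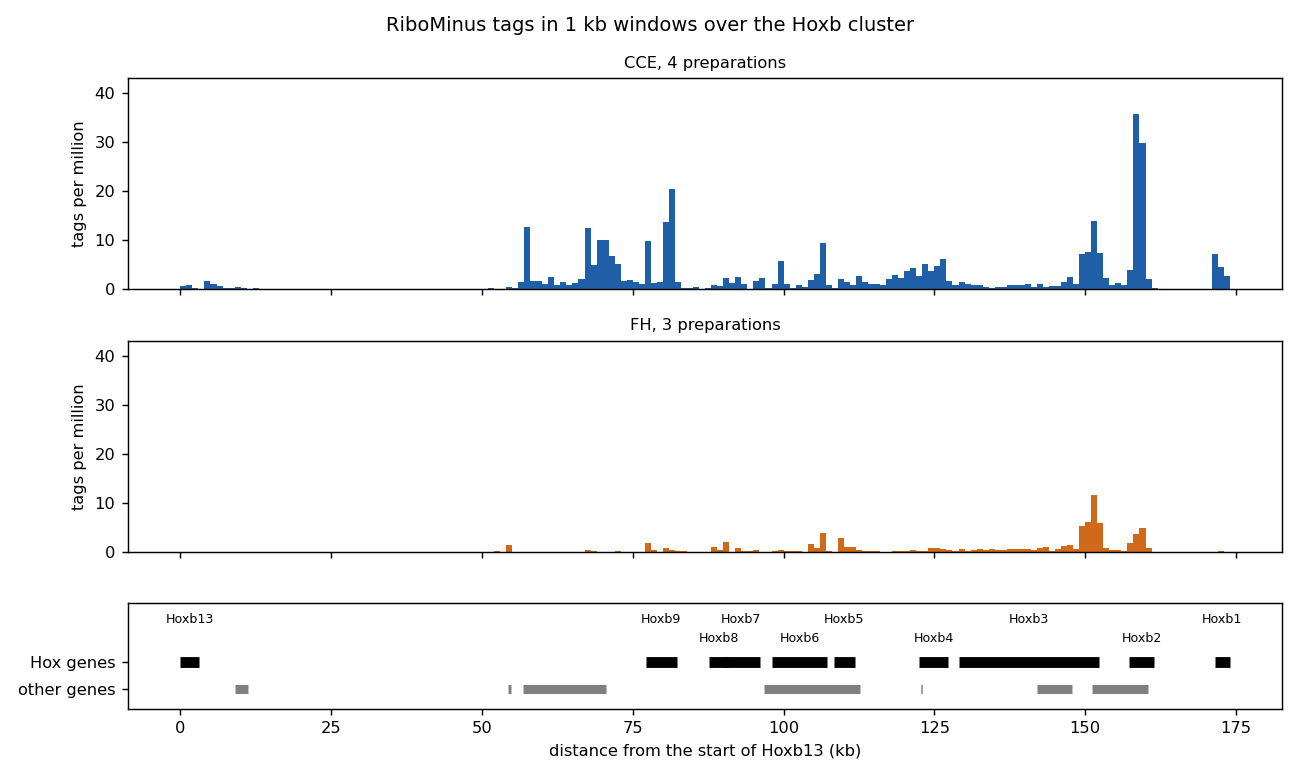
RiboMinus tags per 1000000 unique tags in 1 kb windows over the Hoxb cluster, against distance in kb from the start of Hoxb13, for pooled CCE (top) and FH (middle) tags, with the annotated genes (bottom). CCE tags fill most windows from the gene beside Hoxb9 to Hoxb2, where the highest window, 35.9, lies. They are near 0 between Hoxb2 and Hoxb1. The highest FH window, 11.5, lies over the end of Hoxb3, which Hoxb3os overlaps on the other strand.

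Tags were also counted around the microRNA hairpins, whose mature sequences are given above. These tags come from longer RNA and do not measure the mature microRNA. In the hairpin of miR-196a-1 with 500 bases on either side there were 110 tags in CCE and 0 in FH, and 68 and 3 in Ribo-Zero. The miR-196b window, in Hoxa9, held 30 and 0, and the miR-615 window, in the Hoxc5 gene, 137 and 19. The windows of the miR-10 pair differed from each other, with 27 and 3 for miR-10a in Hoxb4 and 42 and 17 for miR-10b in Hoxd4. In Ribo-Zero the miR-10b window held 38 tags in CCE and 68 in FH, or 1.24 and 1.31 RPKM. Its hairpin shares no exon base with another annotated gene. In the same libraries the Hox introns of the Hoxd cluster were 0.556 RPKM in CCE and 0.431 in FH, and its Hox exons 0.980 and 0.579. The second gene of miR-196a, in the Hoxc cluster, had 1 tag and 0. The Hoxa3 and Hoxb3 DR5 matches had 70 and 54 tags within 1000 bases in CCE and 19 and 24 in FH, and the Hoxd3 match had 4 and 10.

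The clusters hold 31 further annotated gene entries, among which 4 microRNA genes are entered under 2 identifiers each at the same place. The non-coding genes with most tags were Hoxb3os, 5730446D14Rik, Gm20398 and 1700109F18Rik. Hoxb3os, on the other strand across Hoxb2 and Hoxb3, was 22.2, 24.2, 15.6 and 13 in CCE against 8.14, 5.74 and 5.33 in FH, but shares 68.7% of its exon bases with those genes. Gm20398 lies wholly on exon bases of other genes. 5730446D14Rik, beside Hoxa2, was 2.79, 4.18, 4.03 and 3.89 in CCE against 2.84, 3.21 and 2.62 in FH, which overlapped, and shares 62.8% of its exon bases with other genes. 1700109F18Rik, a long non-coding RNA antisense to Hoxd3 and the region before it, was 2.33, 2.06, 1.83 and 1.86 in CCE against 1.11, 0.656 and 1.05 in FH, which did not.

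Outside the clusters, of the nearest protein-coding genes that are not Hox genes 4 could be tested, of which 2 were lower in FH and 0 higher. Skap2, beside Hoxa, was lower in FH (12.0 ± 5.91 against 1.45 ± 0.503 RPKM, −2.31 ± 0.36, adjusted p = 6.06e-04), and Smug1, beside Hoxc, was lower as well (14.5 ± 3.21 against 8.92 ± 2.96, −0.66 ± 0.24, adjusted p = 0.0475). Mtx2, beside Hoxd, was 10.9 ± 3.43 against 8.48 ± 2.02 (adjusted p = 0.360). Evx1, the homeobox gene beyond Hoxa13, was 0.378 ± 0.207 in CCE and 0.865 ± 0.372 in FH (adjusted p = 0.0671). The others, Ttll6, Skap1, Evx2 and Gm17649, had too few tags to be tested.

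Hox proteins bind DNA together with cofactors of the Pbx, Meis and Pknox families. Of the cofactors described here, 2 were lower in FH, 2 were higher and 4 did not pass, close to the shares of all genes tested (28.0% lower and 23.4% higher). Meis1 was lower (45.5 ± 16.8 against 13.6 ± 6.09 RPKM, −1.70 ± 0.38), as was Pbx2 (30.5 ± 3.36 against 20.0 ± 0.621, −0.58 ± 0.16). Meis3 (11.7 ± 3.30 against 25.0 ± 2.17, 1.06 ± 0.21) and Pbx3, named after its values were seen (6.13 ± 1.06 against 16.3 ± 1.89, 1.29 ± 0.19) were higher. In Ribo-Zero Meis3 was nearly level, at 8.67 in CCE and 9.52 in FH, and Pbx3 was 5.30 and 8.03. Meis1 (33.9 and 9.32) and Pbx2 (32.6 and 14.6) were lower in FH there too.

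Of 24 genes known to act upstream of Hox genes, 22 were tested, of which 6 were lower in FH and 4 higher, no larger a share than that of all genes tested (28.0% and 23.4%). Cyp26a1, an enzyme that breaks down retinoic acid and is itself induced by it, was lower in FH (55.2 ± 27.8 against 4.09 ± 1.11, −3.35 ± 0.37, adjusted p = 7.55e-05). Eed, a subunit of the Polycomb complex that represses Hox genes, was lower (45.1 ± 12.5 against 17.4 ± 3.91, −1.30 ± 0.26), and so was Rara, a retinoic acid receptor (30.7 ± 11.3 against 14.9 ± 0.961, −0.94 ± 0.26). Of the other such receptors, Rarb was lower (13.7 ± 1.49 against 7.47 ± 0.5004, −0.79 ± 0.17, adjusted p = 0.00338) and Rarg was 20.6 ± 0.348 against 24.2 ± 1.25 (0.23 ± 0.15, adjusted p = 0.236). In Ribo-Zero Rarg turned direction, at 12.7 in CCE and 7.92 in FH, while Rara (11.1 and 5.05) and Rarb (10.6 and 5.12) did not. Of the 6 Polycomb genes of the list (Ring1, Rnf2, Bmi1, Ezh2, Eed and Suz12) Eed alone passed the test. In Ribo-Zero, which has no test, Suz12 was 28.1 in CCE and 6.75 in FH, while Bmi1 alone of the 6 was higher in FH (2.21 against 2.65).

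The tissues were checked against markers of the cells they could hold. All 7 forebrain and midbrain markers were higher in FH, with a summed RPKM of 5.13 to 7.87 in CCE and 109 to 175 in FH. All 10 hindbrain markers were higher in FH as well (4.29 to 8.56 against 26.9 to 42.6), as were all 5 neuron markers (28.2 to 34.0 against 322 to 581). Primitive endoderm markers were lower in FH in 13 of 17 and higher in 2 (471 to 640 against 259 to 300), with Gata4 at 13.1 ± 2.72 in CCE and 0 in FH. The 2 higher in FH were Ttr (9.13 ± 1.44 against 143 ± 29.9) and Pdgfra (1.37 ± 0.225 against 5.25 ± 1.15). Ttr makes up a large part of the FH sum. Pluripotent cell markers were lower in 8 and higher in 2 of 10 tested (68.6 to 74.6 against 32.9 to 70.7), with Pou5f1 at 18.0 ± 2.51 in CCE and 0 in FH. In Ribo-Zero their sums were 183 and 24.7, and of the markers higher in FH by RiboMinus, Sox2 was 42.7 in CCE and 21.4 in FH and Klf4 was 2.82 and 2.79. Of 12 mesoderm markers 8 were tested, with 2 lower and 1 higher in FH. Of 8 blood markers 4 were tested and all 4 were higher in FH (summed RPKM 0.241 to 2.11 in CCE against 815 to 1329 in FH). Some of these marker sets went the way of the Hox genes between the tissues and others went against it. The part of cell makeup in the Hox differences was not tested.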

How the data were processed

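Per the labels and the methods of the study, the authors removed ribosomal tags, aligned single reads to mm9 with Bowtie and kept only uniquely placed tags. Tags across splice junctions were not mapped, which lowers genes with many short exons. Each deposited line is 1 tag, and the deposited score column is constant in a library and was not used. RiboMinus libraries held 920424 to 2473448 tags.

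Tags were assigned here by midpoint to merged exons of GENCODE M1 (mm9), without strand. Clusters ran from the first to the last listed Hox gene. The naming rule finds 39 genes, of which 1 is not reported here, nor is 1 gene of the cofactor list. For Hoxa3, which has 2 models, ENSMUSG00000079560.5 was used. Tests were limma 3.58.1 with a trend, checked on simulated data, and exact two-sided permutation tests. Intervals are exact (95%), cover counting error only, and 0 tags were read as at most 3. Values in every preparation are given for genes with a mean RPKM of at least 3 in a tissue or Ribo-Zero library, or that passed the test, and some that overlapped were added after their values were seen. Members and lists were chosen with earlier results of these data known. Alternatives changed pseudocount, filter, scaling, model, libraries and counting, and 1, tags summed per depleted RNA, was added after the data were seen. Same-numbered hydrolysed CCE and FH preparations did not deviate together (r = −0.0975 across genes), and no block was used in the main fit. This check cannot decide on a pairing, since the numbers may be crossed between the locations that were summed. Python 3.11.15, scipy 1.17.1 and R 4.3.3 were used.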

Additional observations from a re-analysis of the deposited data

Results flagged for a closer look

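Within the 4 CCE preparations, 3 of 41 groups checked (38 genes and 3 classes) had a preparation far from the rest by Dixon's test, where chance gives about 1 in 20. Hoxb8 was 2.13 RPKM in CCE2 hydrolysed against 1.12 to 1.27 in the others. Hoxb13 was 1.52 in CCE1 sheared against 0.341 to 0.503. Hoxd12 had its only tag of any library in CCE1 hydrolysed (0.0956). A single tag among counts of 0 is always flagged, so Hoxd12 does not count against that rate. None of the 3 genes was called, and Hoxb13 and Hoxd12 had too few tags to be tested.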

How the results depend on the processing

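The number of Hox genes lower in FH stayed within 1.5 times of 24 under 22 alternatives, from 17 of 20 tested with a mean RPKM over 3 to 26 with fragmentation as a covariate, while the share of all genes called lower moved from 28.0% to 34.8% and 40.2%. It was 21 to 24 with each preparation left out in turn. Of the 24 genes, 18 were lower under every alternative that tested them. The number of genes higher in FH, 0, became 1 (Hoxd1) with fragmentation as a covariate and with tags summed per depleted RNA (chosen after seeing the data), 2 (Hoxd1 and Hoxd3) with hydrolysed preparations only, 1 (Hoxd3) over exon bases of that gene alone, and 0 to 1 with each preparation left out (1, Hoxd1, without CCE2 sheared). With a replicate block on the preparation number it was 0, with 22 lower (all genes 24.5% lower, 21.9% higher), and with the block and fragmentation together 2 (Hoxd1 and Hoxd3), with 25 lower (39.0% and 27.5%). Within a tissue the numbers tie sheared and hydrolysed preparations to the same depleted RNA. They are not known to pair a CCE preparation with one of FH. The cause of these shifts was not tested.

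Genes that were not called turned direction. Hoxa6 was −0.014 at Vienna-IMP alone and −0.019 to 0.25 with each preparation left out (−0.0072 without CCE1 hydrolysed, −0.015 without FH1 sheared). Hoxb5 was −0.035 at Vienna-IMP and −0.0024 (without CCE1 hydrolysed) to 0.25 with each left out. Hoxb8 was 0.048 with median ratio scaling, −0.21 to 0.054 with each preparation left out (0.027 without CCE2 hydrolysed), and Hoxb3 was 0.017 with median ratio scaling.

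Counting tags of the same start and strand once moved the FH minus CCE exon RPKM to −5.45, −6.86 and −7.71 in Hoxa, Hoxb and Hoxc (main −4.22, −5.30 and −6.07), with the total also smaller, and Nijmegen alone gave −4.98 in Hoxa. Between genes, leaving out 5 kb after each gene gave −0.00961 in Hoxc (main −0.0476) and left no bases in Hoxa. In Hoxd it was 0.0546 with hydrolysed preparations only and −0.0282 to 0.0131 with each preparation left out (0.00899 without CCE1 sheared). The share of groups 4 to 8 was 1.80 percentage points higher in FH at Nijmegen and −2.25 to 0.604 with each preparation left out (0.0659 without CCE1 hydrolysed). Both had overlapping groups.

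Depth limits the genes of groups 10 to 13, where most FH counts are 0 and 1 tag is the step. Ribo-Zero counts of genes lower in FH moved by less than 1.5 times.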
